A study of Arabidopsis thaliana with 2 samples.

Results

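Signalling genes that stood outside the defence and membrane-system annotations were examined in leaves of *Arabidopsis thaliana* plants with reduced WRKY75. Among the genes lower in WRKY75 RNAi, the authors' deposited table places 67 loci under the ontology term signaling, of which 35 also stand under defense response, 12 under endomembrane system and 8 under both. Of the 28 loci in neither, AT1G01560 was set aside by name. The remaining 27 genes are described here, out of 2159 loci in the gene tables. Every one was taken from the table of genes lower in the RNAi library, so their direction and their position beyond a 2-fold difference were fixed by the choice and are given as a description without a test.

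Messenger RNA was sequenced as polyadenylated RNA from the third and the fourth leaves of 28-day-old plants of the Col-0 ecotype, 1 library from WRKY75 RNAi plants and 1 from wild-type plants. In RNAi plants a transgene silences the target through double-stranded RNA. The labels name neither the promoter of that transgene nor how many lines and plants were pooled. Library totals behind the deposited values were 38042482 reads for WRKY75 RNAi and 41328980 reads for wild type. WRKY75 (AT5G13080), which encodes a WRKY transcription factor, had 476 reads (8.87 RPKM, reads scaled to gene length and library total) in WRKY75 RNAi and 1699 reads (29.2 RPKM) in wild type, 30.4% of the wild-type value. The tables hold only transcripts selected for a difference, so of 13 markers of leaf, guard cell, phloem, root and flower 0 were listed, and the tissue could not be checked against them. Genes outside the tables are described as not listed, and whether they were equal is unknown. Each genotype has 1 library, so differences lack a replicate check and no test of genotype was made. Ratios carry exact 95% intervals by the Clopper-Pearson method, which cover only counting error. In such bulk leaf samples, fewer cells of a type and less RNA per cell cannot be told apart.

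Plant cells sense their surroundings chiefly through receptor-like kinases, membrane proteins with an outer recognition domain and an inner kinase domain, and through receptors inside the cell. The signal passes on through phosphorylation, calcium, inositol phosphates and small GTPases, proteins that switch between a GTP-bound and a GDP-bound state. Hormone pathways such as cytokinin and ethylene end in transcription factors and in repressors that are themselves induced by the hormone. WRKY factors bind the W box, a short promoter element with the core TTGAC, in genes that include other signalling genes of stress and ageing leaves.

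The 27 genes covered a wide span of abundance and a narrower span of ratios. Levels ran from 0 to 127 RPKM in WRKY75 RNAi and from 0.124 to 278 RPKM in wild type. By role they were 9 receptors or receptor-like proteins, 3 genes of kinase and phosphatase signalling, 5 genes of GTPases and calcium, 2 hormone-responsive regulators, 5 transcription factors and 3 proteins with a C1 domain. All 27 had a log2 ratio of WRKY75 RNAi over wild type at or below -1, as the choice requires, against 43.1% of all listed loci. Their median was -1.41, beside -1.48 over the 930 loci listed as lower and -1.496 over the other 40 loci of the signaling term. A log2 ratio at or below -1.5 was reached by 11 of 27 (48.3% of loci listed as lower) and one at or below -2 by 5 of 27 (23.2%). The whole counting interval lay below -1 for 13 of 27 (52.7% of loci listed as lower). At the near end stood AT2G28970 and PSY1R, each at -1.03, and PKS4 at -1.05; the tables hold no gene just outside the 2-fold limit. The authors' deposited table gives 67 of 857 list genes (7.8%) for the term against 1023 of 27594 background genes (3.7%), with an adjusted p of 9.19e-07, a value for the whole term and not for these 27 genes.

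**Figure D1:**
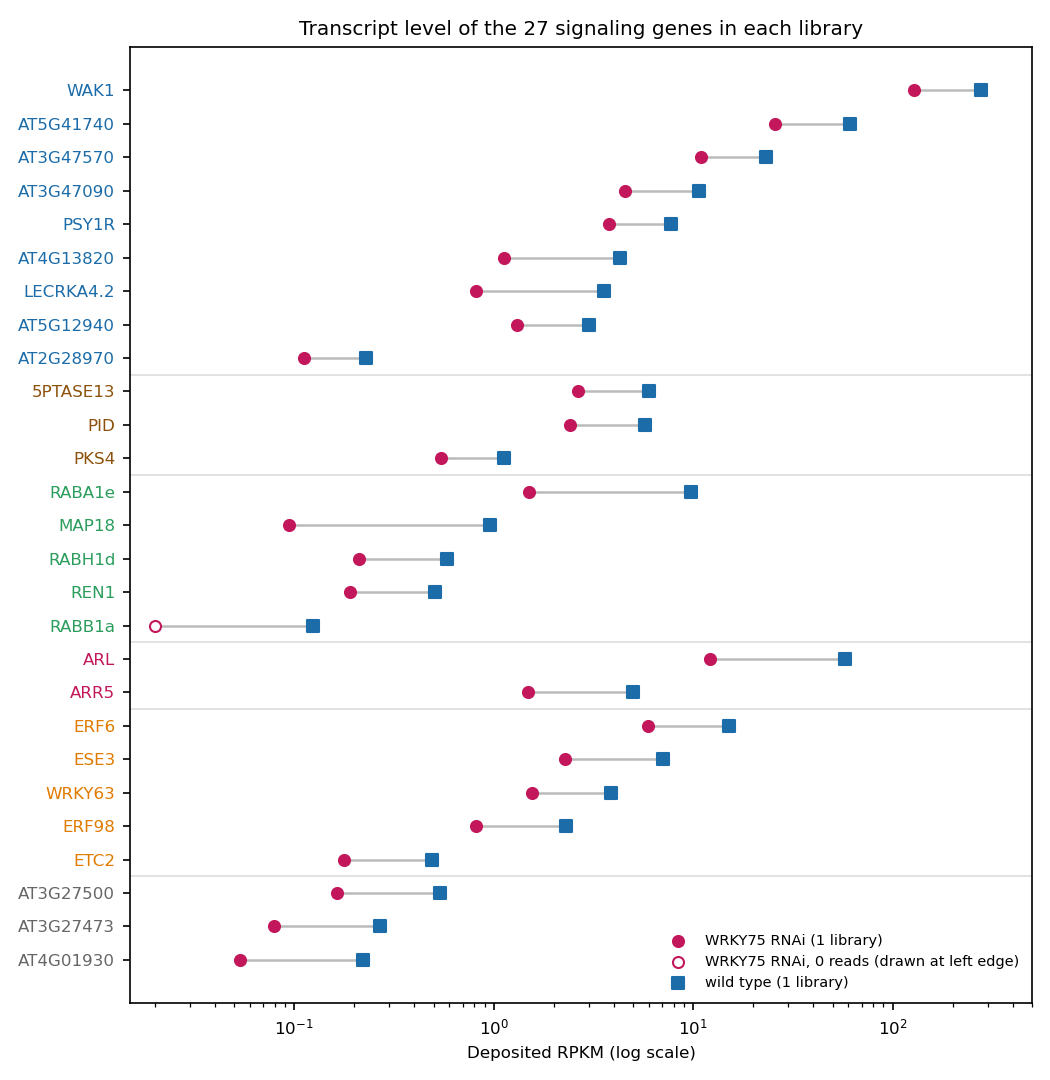
Deposited RPKM (log scale) of the 27 genes in WRKY75 RNAi (circles) and wild type (squares), 1 library each, grouped by role, from receptors at the top to C1 domain proteins at the bottom and ordered by wild-type level within a role. WAK1 is the highest at 127 RPKM in WRKY75 RNAi and 278 RPKM in wild type, and RABB1a, with 0 reads in WRKY75 RNAi, is drawn as an open circle at the left edge.

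A few genes held most of the reads. WAK1 took 60.4% of the 22835 reads of these genes in WRKY75 RNAi and 56.7% of the 57708 reads in wild type, and AT5G41740 took 19.2% and 19.7%. In wild type 10 genes had under 100 reads, and for them the intervals were wide. The order by RPKM was the same in both libraries for the 6 highest genes, WAK1, AT5G41740, ARL, AT3G47570, ERF6 and AT3G47090. RABA1e ranked 12 in WRKY75 RNAi and 7 in wild type. Deposited gene lengths were between 0.533 and 2.01 times the spliced length of the same model in the TAIR10.1 annotation; with spliced lengths the first 4 ranks in wild type were the same and RABA1e ranked 5.

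Promoter sequence was examined because the silenced gene encodes a W-box binding factor. Among the 27 windows from 250 bases before to 50 bases after the annotated gene start, 12 held TTGACC or TTGACT on either strand, or 44.4%. Of 27443 protein-coding genes 32.4% had such a hexamer in the same window, of loci listed as lower 47.7%, of loci listed as higher 27.4% and of the other 40 loci of the signaling term 60.0%. A second hexamer was present in 3 of the 27 windows (11.1%), against 7.70% of all protein-coding genes, 19.7% of loci listed as lower, 5.06% of loci listed as higher and 20.0% of the other loci of the signaling term. These shares are a description of letters; binding of WRKY75 was not measured. The 4 sequences below are the 250 bases before the start, written 5′ to 3′ along the gene from the RefSeq TAIR10.1 genome, with each TTGACC or TTGACT, or its reverse complement, in capitals. They are shown for AT3G47090 and AT3G47570, a pair of related receptor kinase genes, and for LECRKA4.2 and ARL, the genes that combined a W box with a log2 ratio below -2.
AT3G47090, chr3:17344763-17345012, minus strand: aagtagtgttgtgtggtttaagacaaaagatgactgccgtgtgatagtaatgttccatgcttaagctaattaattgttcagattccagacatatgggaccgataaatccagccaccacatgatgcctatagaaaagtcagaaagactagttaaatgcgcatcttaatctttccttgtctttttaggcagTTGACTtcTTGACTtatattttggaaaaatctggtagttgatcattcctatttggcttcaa
AT3G47570, chr3:17527257-17527506, plus strand: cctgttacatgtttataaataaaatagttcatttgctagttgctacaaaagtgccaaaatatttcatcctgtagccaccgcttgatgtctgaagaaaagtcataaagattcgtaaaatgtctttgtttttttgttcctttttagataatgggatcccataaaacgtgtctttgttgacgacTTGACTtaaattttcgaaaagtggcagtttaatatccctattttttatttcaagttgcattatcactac
LECRKA4.2, chr5:216774-217023, minus strand: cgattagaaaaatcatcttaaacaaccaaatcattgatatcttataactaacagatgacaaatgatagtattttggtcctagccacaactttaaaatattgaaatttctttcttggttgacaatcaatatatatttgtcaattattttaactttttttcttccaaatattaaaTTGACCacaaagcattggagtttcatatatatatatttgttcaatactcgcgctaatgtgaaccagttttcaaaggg
ARL, chr2:18236539-18236788, plus strand: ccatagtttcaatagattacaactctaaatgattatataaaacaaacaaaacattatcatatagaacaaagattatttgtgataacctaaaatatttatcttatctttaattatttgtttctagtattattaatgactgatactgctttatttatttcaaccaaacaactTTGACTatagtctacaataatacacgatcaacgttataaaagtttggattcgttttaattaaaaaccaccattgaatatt
The hexamers began 61 and 53 bases before the start in AT3G47090, 69 bases in AT3G47570, 77 bases in LECRKA4.2 and 80 bases in ARL. An annotated non-coding RNA gene, AT3G07635, overlaps the first of these windows. MAP18 and RABA1e, with the largest ratios, had 0 such hexamers, as did WAK1, AT5G41740 and ERF6.

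**Figure D2:**
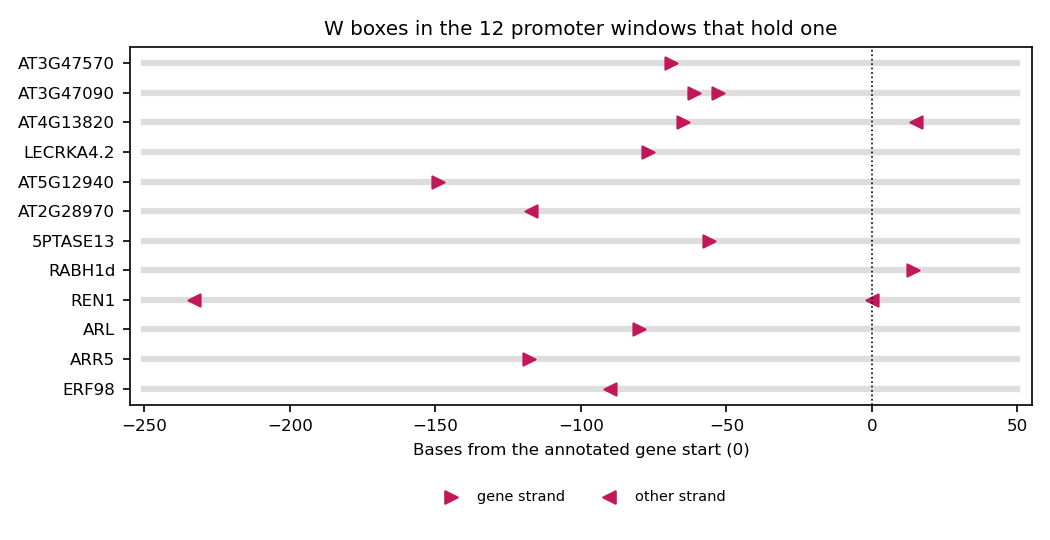
Position of each TTGACC or TTGACT hexamer, in bases from the annotated gene start, in the 12 windows of 27 that hold one; arrows point along the gene strand or against it. In AT3G47570, AT3G47090, AT4G13820, LECRKA4.2, ARL and 5PTASE13 a hexamer lies between 56 and 80 bases before the start.

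Receptors made up the largest class, and 7 of its 9 genes lay between -1.25 and -1.03. The cut at -1 bounds this range by the choice. The median of the class was -1.20, and the 930 loci listed as lower had a median of -1.48 and an upper quartile of -1.22. WAK1 (AT1G21250) encodes a wall-associated kinase that binds pectin fragments of the cell wall. It had 13792 reads (127 RPKM) in WRKY75 RNAi and 32697 reads (278 RPKM) in wild type, 45.8% of the wild-type value. The log2 ratio of WAK1, -1.13, had the narrowest interval of all 27 genes, -1.15 to -1.10. In the cluster of 5 WAK genes, WAK2 and WAK3 were also listed as lower and WAK4 and WAK5 were not listed. WAK2 was at 39.2 RPKM in WRKY75 RNAi and 94.0 RPKM in wild type (log2 ratio -1.26, interval -1.31 to -1.21), and WAK3 at 21.1 and 84.5 RPKM (-1.999, interval -2.07 to -1.93). The interval of WAK3 lay wholly below those of WAK1 and WAK2, whose own intervals were also separate. The transcript of WAK1 is 78.9% identical to that of WAK2 over 2715 bases, and a stretch of at least 50 bases is 91.3% identical to WAK3. Reads from such similar genes may have been divided between them in the authors' counting, so the differences among the 3 genes are uncertain. A gene overlaps WAK2 on the opposite strand. AT1G21245, a direct neighbour of WAK1, was also listed as lower, with 80 reads in WRKY75 RNAi and 349 in wild type (-2.01). By the words wall-associated kinase in the annotation, 6 of 19 genes were listed as lower and 1 as higher (AT4G31110, log2 ratio 1.75). Over all 27443 nuclear protein-coding genes of TAIR10.1, expressed in these leaves or not, 3.09% were listed as lower and 4.18% as higher, the background for this and the later counts of families and pathways.

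AT5G41740 encodes a protein of the TIR-NBS-LRR class, intracellular receptors best known from pathogen recognition, although the deposited table does not place it under defense response. It had 4391 reads (25.7 RPKM) in WRKY75 RNAi against 11379 reads (61.3 RPKM) in wild type, a log2 ratio of -1.25 (interval -1.30 to -1.20). Its second listed model gave -1.33. The neighbouring gene AT5G41750, of the same class, was at 28.4 RPKM in WRKY75 RNAi and 79.4 RPKM in wild type (-1.48, interval -1.53 to -1.43). Their transcripts are 89.3% identical over an alignment of 3350 bases. No stretch reached the limit of 97% identity over 50 bases, but reads from such near copies may have been divided between the genes in the authors' counting, so both values are uncertain.

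AT3G47570 and AT3G47090 encode leucine-rich repeat receptor kinases related to EFR, the receptor of a bacterial elongation factor. AT3G47570 was at 10.9 RPKM (1418 reads) in WRKY75 RNAi and 23.2 RPKM (3287 reads) in wild type (log2 ratio -1.09, interval -1.18 to -1.003). AT3G47090 was at 4.53 RPKM (540 reads) against 10.7 RPKM (1384 reads), a log2 ratio of -1.24 (interval -1.38 to -1.09). The intervals of the pair overlapped. Their transcripts are 79.4% identical over 3181 bases, and EFR, AT3G47110 and AT3G47580 were not listed. These are the genes whose W boxes are printed above.

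PSY1R (AT1G72300) encodes a leucine-rich repeat kinase described as the receptor of PSY1, a sulfated peptide that promotes cell expansion. It had 526 reads (3.79 RPKM) in WRKY75 RNAi and 1170 reads (7.76 RPKM) in wild type (log2 ratio -1.03, interval -1.19 to -0.88). The gene of the peptide, PSY1, and the phytosulfokine receptor genes PSKR1 and PSKR2 were not listed. LECRKA4.2 (AT5G01550), a lectin receptor kinase gene involved in the abscisic acid response of germinating seeds, was the most reduced receptor gene. It had 64 reads (0.814 RPKM) in WRKY75 RNAi against 304 reads (3.56 RPKM) in wild type, 22.9% of the wild-type value (-2.13, interval -2.54 to -1.74). The adjacent family members LECRKA4.1 and LECRKA4.3 were not listed.

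Less characterised genes complete the class. AT4G13820, a leucine-rich repeat protein, had 118 reads (1.13 RPKM) in WRKY75 RNAi and 488 reads (4.28 RPKM) in wild type (log2 ratio -1.93, interval -2.23 to -1.64). AT5G12940, likewise a leucine-rich repeat protein, had 64 reads (1.302 RPKM) against 160 reads (2.996 RPKM), with -1.20 (interval -1.64 to -0.78). AT2G28970, a leucine-rich repeat kinase, rested on 18 and 40 reads, and its interval ran from -1.92 to -0.20. Among receptor genes with at least 100 wild-type reads, the interval of LECRKA4.2 lay below those of all but AT4G13820, and the interval of AT4G13820 also met that of AT5G12940.

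**Figure D3:**
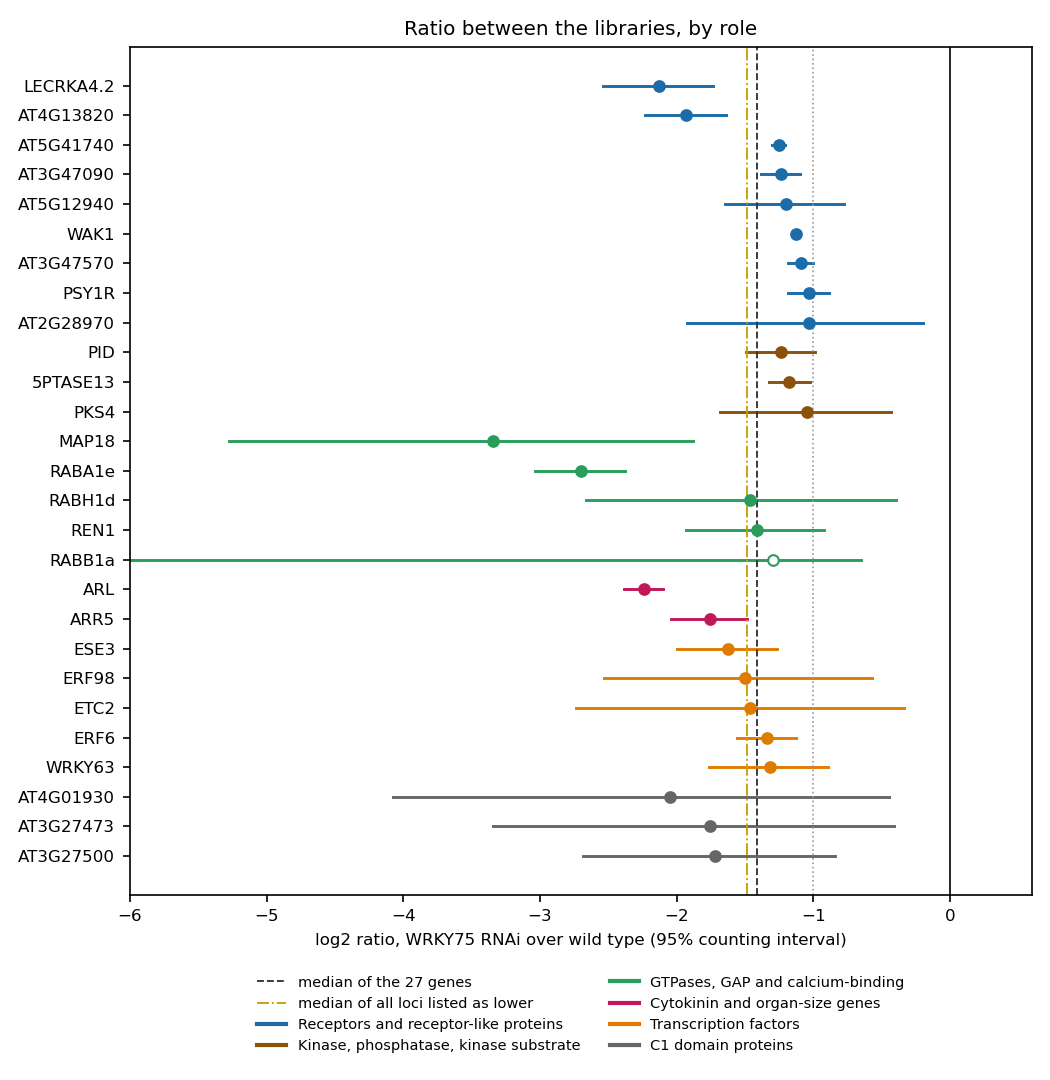
Log2 ratio of WRKY75 RNAi over wild type for the 27 genes (points) with 95% counting intervals (lines), coloured by role; the open point is RABB1a against a floor of 3 reads, and its interval has no lower end. Most receptor genes lie just below -1, the limit set by the choice, while MAP18 at -3.34, RABA1e at -2.70 and ARL at -2.24 lie farthest from 0.

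The 3 genes of kinase and phosphatase signalling had log2 ratios between -1.24 and -1.05. PID (AT2G34650), a kinase that directs the PIN auxin carriers in the membrane, had 187 reads (2.42 RPKM) in WRKY75 RNAi and 479 reads (5.71 RPKM) in wild type (log2 ratio -1.24, interval -1.49 to -0.99). Of 7 other genes of polar auxin transport, the carrier gene PIN4 was listed as lower, at 1.05 against 2.11 RPKM (-1.004), and WAG1 and WAG2 were not listed. 5PTASE13 (AT1G05630) encodes an inositol polyphosphate 5-phosphatase, which ends an inositol phosphate signal. It had 496 reads (2.66 RPKM) against 1216 reads (5.996 RPKM), with -1.17 (interval -1.33 to -1.02), and its second model gave -1.19. PKS4 (AT5G04190), a phototropism component and a substrate of the blue-light receptor kinase phot1, had 33 reads in WRKY75 RNAi and 74 in wild type (-1.05, interval -1.68 to -0.44). The intervals of these 3 genes overlapped.

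The class of small GTPases and calcium held the most strongly reduced genes, on very unequal depth. RABA1e (AT4G18430) belongs to the RAB-A1 GTPases of vesicle traffic to the cell surface. It had 89 reads (1.497 RPKM) in WRKY75 RNAi against 627 reads (9.71 RPKM) in wild type, a 6.48-fold lower value (log2 ratio -2.70, interval -3.03 to -2.37). The other 8 RAB-A1 genes were not listed. Its flanking genes were listed in the opposite direction, AT4G18440 with 12461 reads in WRKY75 RNAi and 5181 in wild type (1.39) and AT4G18425 with 38 and 20 reads (1.05). MAP18 (AT5G44610) encodes a calcium-binding protein of the plasma membrane that also binds microtubules. It had 4 reads (0.0946 RPKM) in WRKY75 RNAi against 44 reads (0.958 RPKM) in wild type. The log2 ratio was -3.34 with an interval of -5.28 to -1.88, which overlaps that of RABA1e.

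The remaining genes of the class were below 1 RPKM in both libraries. REN1 (AT4G24580), a GTPase-activating protein of ROP GTPases known from pollen tubes, had 46 reads (0.190 RPKM) in WRKY75 RNAi and 133 reads (0.505 RPKM) in wild type (log2 ratio -1.41, interval -1.93 to -0.92). Its neighbour AT4G24570 was also listed as lower, with 6812 reads in WRKY75 RNAi and 20728 in wild type (-1.49), and AT4G24590 was not listed. The deposited length of REN1 was 2.01 times its spliced length. Whether reads of the neighbour entered the REN1 count was not tested. RABH1d (AT2G22290) had 10 reads against 30 (-1.47, interval -2.66 to -0.39). Its close relative RABH1e was listed in the opposite direction, with 254 reads in WRKY75 RNAi and 40 in wild type (log2 ratio 2.79, interval 2.301 to 3.31). A gene overlaps RABH1e on the opposite strand. RABB1a (AT4G17160) had 0 reads in WRKY75 RNAi and 8 in wild type, 2.45-fold lower against a floor of 3 reads per library. The upper end of its log2 interval was -0.65, so a smaller difference lies within counting error. A gene overlaps RABB1a on the opposite strand. Over 48 genes named as RAB GTPases, 4 were listed as lower and 2 as higher, where all protein-coding genes gave 3.09% and 4.18%.

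**Figure D4:**
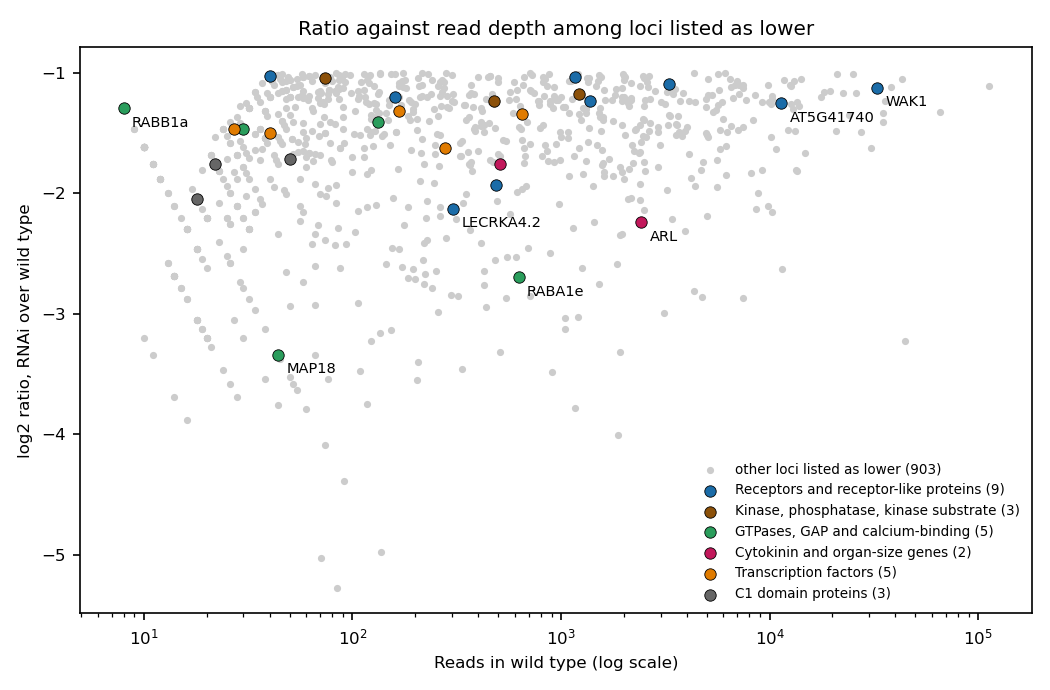
Log2 ratio of WRKY75 RNAi over wild type against reads in wild type (log scale) for the 930 loci listed as lower, with the 27 genes coloured by role; loci at 0 reads are placed against a floor of 3 reads. WAK1 with 32697 wild-type reads and MAP18 with 44 mark the range of depth behind the ratios.

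Hormone regulators included 1 abundant and strongly reduced gene. ARL (AT2G44080), the ARGOS-like gene, promotes cell expansion in growing organs and acts downstream of the brassinosteroid receptor BRI1. It had 473 reads (12.2 RPKM) in WRKY75 RNAi and 2426 reads (57.5 RPKM) in wild type, 21.2% of the wild-type value. With a log2 ratio of -2.24 (interval -2.38 to -2.10), ARL was the lowest among the 6 genes highest in deposited RPKM. With spliced lengths RABA1e, at -2.70, ranked 5 in wild type and was lower. All 3 genes of the ARGOS family were listed as lower. ARGOS (AT3G59900) had 66 reads in WRKY75 RNAi and 188 in wild type (-1.39, interval -1.82 to -0.98), and OSR1 (AT2G41230) had 12 and 38 (-1.54, interval -2.62 to -0.58), with a gene on the opposite strand. The interval of ARL was below that of ARGOS and overlapped that of OSR1. Of 10 brassinosteroid signalling genes, BRI1 and BAK1 among them, 0 were listed.

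ARR5 (AT3G48100) is a type-A response regulator, a cytokinin-induced repressor of cytokinin signalling. It had 138 reads (1.48 RPKM) in WRKY75 RNAi and 507 reads (5.01 RPKM) in wild type, 29.6% of the wild-type value (log2 ratio -1.76, interval -2.04 to -1.48). Among 25 genes of cytokinin signalling and its phosphorelay, ARR5 was the only one listed as lower, and AHP4, a phosphotransfer protein gene, was the only one listed as higher. AHP4 had 112 reads in WRKY75 RNAi and 20 in wild type (2.60, interval 1.91 to 3.37), and a gene overlaps it on the opposite strand. The cytokinin receptor genes AHK2, AHK3 and AHK4 and the other type-A regulators were not listed.

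Transcription factor genes lay between -1.62 and -1.32. ERF6 (AT4G17490), an ethylene-response factor of oxidative stress, was the most abundant, with 237 reads (5.97 RPKM) in WRKY75 RNAi and 652 reads (15.1 RPKM) in wild type (log2 ratio -1.34, interval -1.56 to -1.12). ESE3 (AT5G25190), an ethylene- and salt-inducible factor, had 83 reads (2.28 RPKM) against 278 reads (7.02 RPKM), with -1.62 (interval -1.996 to -1.27). ERF98 (AT3G23230) had 13 and 40 reads (-1.502, interval -2.53 to -0.57). It neighbours ERF1, which was at 13 reads in WRKY75 RNAi and 68 in wild type. Their intervals all overlapped. ERF6 and ERF98 also stand under response to chitin in the deposited table.

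Among 24 genes of ethylene signalling, 4 were listed as lower and 0 as higher (3.09% and 4.18% of all protein-coding genes). ERF6 was the only one of the 27 genes in that list, which was drawn up without ERF98 and ESE3. EBF2 (AT5G25350), an F-box protein that targets the ethylene regulator EIN3 for degradation and is itself induced by ethylene, was at 20.1 RPKM (2121 reads) in WRKY75 RNAi and 89.6 RPKM (10246 reads) in wild type (log2 ratio -2.15, interval -2.22 to -2.09). ERF1 was at -2.27 (interval -3.25 to -1.40) and ERF105 at -1.48 (interval -1.60 to -1.37). Genes overlap EBF2 and ERF105 on the opposite strand. The ethylene receptor genes ETR1, ERS1, ETR2, ERS2 and EIN4, and the signalling genes CTR1, EIN2, EIN3 and EIL1, were not listed.

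WRKY63 (AT1G66600), a WRKY factor of abscisic acid and drought responses, had 62 reads (1.56 RPKM) in WRKY75 RNAi and 168 reads (3.89 RPKM) in wild type (log2 ratio -1.32, interval -1.76 to -0.89). Of its relatives in the same cluster, WRKY67 was listed as higher, with 7 reads in WRKY75 RNAi and 0 in wild type, and WRKY64 was not listed. Against the floor of 3 reads WRKY67 was 2.53-fold higher (log2 ratio 1.34, lower end of the interval 0.65). Of 25 abscisic acid signalling genes, the receptor gene PYL6 was listed as lower (10.2 against 30.4 RPKM, -1.58) and the phosphatase gene HAI1 as higher (1.16). ETC2 (AT2G30420), a single-repeat MYB factor that limits leaf hair formation, rested on 9 reads in WRKY75 RNAi and 27 in wild type (-1.47, interval -2.74 to -0.33). It stands in tandem with TCL2, at 62 and 136 reads (-1.01), and TCL1, at 22 and 0 reads. Against the same floor TCL1 was 7.97-fold higher in WRKY75 RNAi (log2 ratio 2.99, lower end of the interval 2.57). Members of this tandem thus differed in direction, on few reads.

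**Figure D5:**
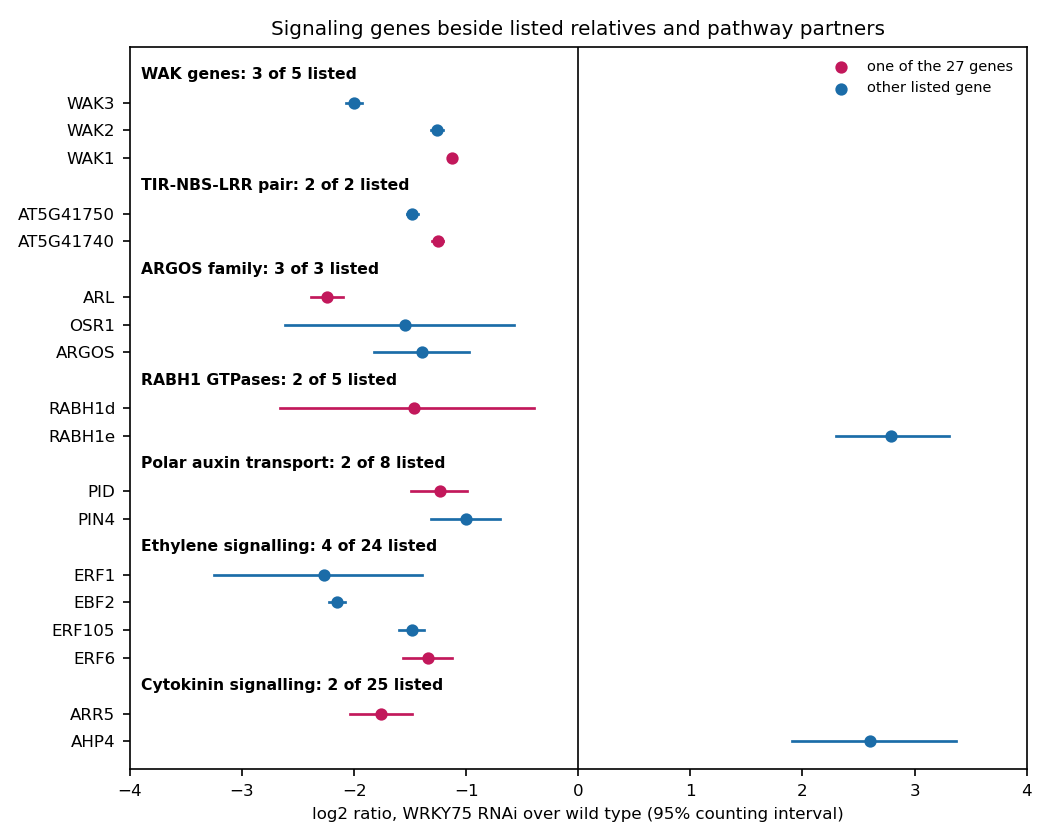
Log2 ratio of WRKY75 RNAi over wild type with 95% counting intervals for genes among the 27 (red) and for listed relatives or pathway partners (blue); the heading of each block gives how many of the examined genes were listed. WAK, ARGOS, auxin transport and ethylene genes lie left of 0 throughout, whereas RABH1e at 2.79 and AHP4 at 2.60 lie opposite to RABH1d and ARR5.

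The C1 domain genes AT3G27473, AT3G27500 and AT4G01930 encode proteins with cysteine- and histidine-rich domains of unassigned function, and they stand under no other term of the deposited table. They had 6, 14 and 4 reads in WRKY75 RNAi against 22, 50 and 18 reads in wild type. Their log2 ratios were -1.75, -1.72 and -2.05, with intervals whose upper ends were -0.41, -0.84 and -0.45. A non-coding gene overlaps AT3G27473 on its own strand. AT4G01925, a C1 domain gene beside AT4G01930, was also listed as lower, with 6 reads in WRKY75 RNAi and 24 in wild type (-1.88). Of 151 genes annotated with this domain, 11 were listed as lower and 2 as higher, beside 3.09% and 4.18% of all protein-coding genes. The best covered, AT2G27660, had 1187 reads (13.5 RPKM) in WRKY75 RNAi and 4112 reads (43.0 RPKM) in wild type (-1.67, interval -1.77 to -1.58).

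The other pathway lists, which hold none of the 27 genes, are short and gave small counts. Of all protein-coding genes 3.09% were listed as lower and 4.18% as higher, and several of the counts below exceed these shares. No test was made on them. Mitogen-activated protein kinase cascades had 1 lower and 3 higher of 30 genes, the lower one being AT1G01560, which was set aside from the 27. Calcium signalling had 3 lower and 1 higher of 25, auxin signalling 0 and 2 of 18, gibberellin signalling 0 and 1 of 9, and adaptors of TIR and NB-LRR immunity 2 and 0 of 17. Of 6 genes of heterotrimeric G proteins 0 were listed. Beyond the term signaling, the 27 genes were spread over the deposited terms. They made up 16 of 140 loci under biological regulation, 11 of 43 under signal transmission and 8 of 65 under kinase activity. Under response to organic substance they were 11 of 65 and under response to stress 3 of 114. These terms are a selection, and the 27 genes stand in an authors' list of 857 genes. Genes chosen by the term signaling can share related terms, which can raise such counts. The choice also left out every locus under defense response, which can lower the count under response to stress.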

How the data were processed

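Polyadenylated RNA of 1 WRKY75 RNAi and 1 wild-type library was aligned by the authors with Bowtie to TAIR10, per the submitters' processing notes; the sources used here give no counter, strand setting or filter. The authors deposited read counts per transcript model, RPKM, log2 ratios, p-values and false discovery rates for 998 lower and 1360 higher models, per the file headers, and p-values of ontology terms. The deposited log2 ratios equal those of the RPKM values within 7.29e-08 where both libraries had reads.

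Ratios were recomputed from RPKM for the model with the most reads per locus; library totals are medians of reads over RPKM and length. The row without a gene identifier, 0.0384% of the RNAi and 0.103% of the wild-type total, was left out. A library at 0 reads was set to a floor of 3 reads. Intervals (scipy 1.17.1) were tested on simulated data. All 27 loci were found in RefSeq TAIR10.1, which served for names, overlaps and promoters; the deposited files hold no coordinates. Transcripts were compared by BLAST 2.17.0. Other settings tried were pseudocounts, read minimums, summed models, unscaled reads and motif spelling. The genes, lists and families were chosen with earlier results of these data known, and every one of the 27 genes is named; the families and word searches were chosen after values were seen.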

Additional observations from a re-analysis of the deposited data

How the results depend on the processing

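No paired analysis was possible because each genotype has 1 library, and for the same reason no library could be left out. Adding 0.1 RPKM kept 25 of 27 genes at or below -1 and gave a median of -1.20, with AT2G28970 at -0.63 and PKS4 at -0.93. Adding 1 RPKM gave a median log2 ratio of -0.93 and 11 genes at or below -1, with MAP18 at -0.84. Both additions were made for the 27 genes only, so whether other loci listed as lower would shift alike was not tested. Stricter limits left 11 genes at -1.5, 5 genes at -2 and 13 genes with the whole interval below -1; the last was chosen after seeing the data. Unscaled reads shift every log2 ratio by -0.12 and give a median of -1.53. At least 50 wild-type reads left 19 genes with a median of -1.32. The median was -1.41 with summed models and -1.44 with the locus set aside kept or the locus at 0 reads left out; these last settings were also chosen after seeing the data. The share of promoters with a W box was 59.3% for the core TTGAC and 40.7% for the hexamers in the 250 bases before the start. The same shares were 50.5% and 28.4% of all protein-coding genes and 64.9% and 43.6% of loci listed as lower. Among the other loci of the signaling term they were 80.0% and 52.5%. Depth limits 10 genes under 100 wild-type reads, of which 1 had its whole interval below -1, against 12 of the other 17.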
